A study of Homo sapiens with 5 samples.

Results

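A set of 10 nuclear genes of mitochondrial respiration was examined for peaks of ASXL1, FOXK1 and O-GlcNAc in chromatin of the human embryonic kidney line Flp-In HEK293 T-REx, which carries a recombination site for transgenes and a tetracycline repressor. The genes were given by name: NDUFS1, SDHA, SDHB, SDHD, UQCRC1, CYCS, COX4I1, ATP5B (current symbol ATP5F1B), NRF1 and TFAM. A peak was taken for a gene when its nearest edge lay within 5 kb of 1 listed start of that gene on the hg19 build. By this rule the 10 starts had 21 of the 94237 ASXL1 peaks, 4 of the 21697 FOXK1 peaks and 8 of the 78825 O-GlcNAc peaks. The groups were 1 library with an ASXL1 antibody, 1 with a FOXK1 antibody and 1 with an antibody against O-GlcNAc, all from this line with no treatment named in the labels, and 2 input libraries, whose own values were not analysed here. Chromatin preparation 63 served for ASXL1 and O-GlcNAc, and preparation 62 for FOXK1, so effects of the FOXK1 antibody and of its preparation cannot be told apart. With 1 library per antibody there were no replicates, no value has a replicate error and no test between antibodies was possible.

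Respiration passes electrons along a chain of protein complexes in the inner mitochondrial membrane, and the proton gradient built on the way drives ATP synthesis. Most subunits are encoded in the nucleus, and the mitochondrial genome encodes the rest, so the chain draws on both genomes. NRF1 is a nuclear factor that binds promoters of many respiratory genes, and TFAM packages mitochondrial DNA and is needed for its transcription. ASXL1 is a chromatin protein that works with BAP1, an enzyme that removes ubiquitin from histone H2A. FOXK1 is a transcription factor with a forkhead DNA-binding domain, and O-GlcNAc is a sugar that the enzyme OGT attaches to serines and threonines of nuclear proteins.

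The promoters of 4 genes show the range of what was found, and each is given here as the 250 bases before its RefSeq start, 5′ to 3′ on the gene's strand. SDHD and TFAM had peaks of all 3 lists, SDHB had ASXL1 and O-GlcNAc peaks, and SDHA had an ASXL1 peak alone. The sequences are from RefSeq on GRCh38.p14, a later build than that of the peaks, so their positions are not to be set against peak coordinates. They lie at chr11:112086623-112086872 (SDHD, plus strand), chr10:58385160-58385409 (TFAM, plus strand), chr1:17054033-17054282 (SDHB, minus strand) and chr5:218070-218319 (SDHA, plus strand). Capitals mark matches on either strand. In SDHD they mark CGCATGCG (a form of the NRF1 motif) and CCGGAAGT (an ETS motif). They mark GGGCGG (SP1) in TFAM and SDHB, and GCGCAGGCG in TFAM and SDHA.
SDHD: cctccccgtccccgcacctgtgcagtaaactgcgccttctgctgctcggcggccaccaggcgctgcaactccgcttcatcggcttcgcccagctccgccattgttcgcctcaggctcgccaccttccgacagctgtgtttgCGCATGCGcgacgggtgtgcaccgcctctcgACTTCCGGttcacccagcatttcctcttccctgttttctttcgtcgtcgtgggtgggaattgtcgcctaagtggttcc
TFAM: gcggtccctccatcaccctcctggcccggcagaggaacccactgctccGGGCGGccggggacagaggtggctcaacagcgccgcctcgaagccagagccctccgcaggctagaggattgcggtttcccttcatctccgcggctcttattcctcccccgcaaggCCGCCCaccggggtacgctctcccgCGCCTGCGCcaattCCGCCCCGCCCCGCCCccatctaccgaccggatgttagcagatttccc
SDHB: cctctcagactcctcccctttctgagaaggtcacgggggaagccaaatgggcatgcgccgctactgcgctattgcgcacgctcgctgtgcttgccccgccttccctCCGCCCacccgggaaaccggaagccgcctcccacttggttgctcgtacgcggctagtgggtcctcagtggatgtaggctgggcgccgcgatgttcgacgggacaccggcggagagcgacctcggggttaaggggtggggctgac
SDHA: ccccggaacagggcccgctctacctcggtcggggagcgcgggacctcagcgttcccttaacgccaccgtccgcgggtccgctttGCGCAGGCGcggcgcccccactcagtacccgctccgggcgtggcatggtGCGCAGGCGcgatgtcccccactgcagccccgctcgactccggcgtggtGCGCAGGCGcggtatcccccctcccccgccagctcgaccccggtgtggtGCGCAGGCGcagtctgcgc

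ASXL1 was found at each of the 10 starts, O-GlcNAc near 7 and FOXK1 near 4. The 4 genes with FOXK1, which were ATP5B, COX4I1, SDHD and TFAM, were among the 7 with O-GlcNAc, which also held NDUFS1, SDHB and CYCS. SDHA, UQCRC1 and NRF1 had ASXL1 alone. For scale, 20.0% of all 303474 windows of 10 kb on chromosomes 1 to 22 and X held an ASXL1 peak, 20.8% an O-GlcNAc peak and 6.38% a FOXK1 peak. Peaks of all 3 lists met in 2.94% of the windows and near 4 of the 10 starts. Those windows cover the genome at large, including its gene-poor stretches, and start sites of other genes were not analysed here.

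**Figure D1:**
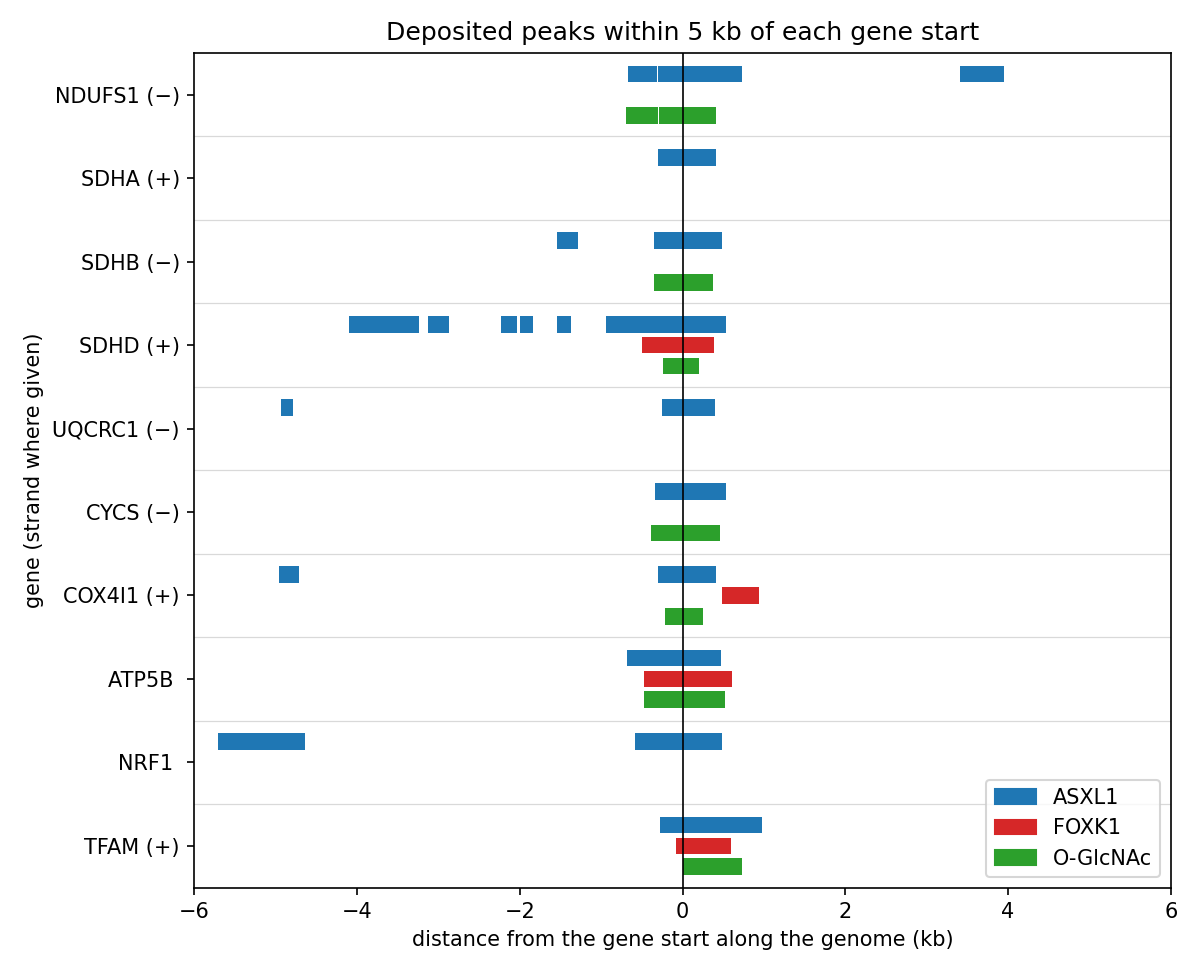
Peaks of the 3 lists (ASXL1 blue, FOXK1 red, O-GlcNAc green) drawn to scale within 5 kb of each start; the horizontal axis is the distance from the start along the genome in kb, not turned by strand, and each row is 1 gene. An ASXL1 peak lies over each of the 10 starts, the O-GlcNAc peaks overlap it at 7 genes, and 3 of the 4 FOXK1 peaks lie over a start.

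The scores ranked the ASXL1 peaks at these starts high within their list. Each score is the authors' own, from their peak caller. The labels do not state what it measures, and it was read only within a list. The ASXL1 peak over the start scored 447.03 to 2450.34 (median 1035.39), and the median score of all ASXL1 peaks was 74.23. The lowest of them, at UQCRC1, stood above 90.1% of the list. The 11 further ASXL1 peaks within 5 kb scored 51.93 to 429.6, with a median of 62.37, below that of the list. The highest O-GlcNAc peak of each of the 7 genes scored 91.25 to 743.54 (median 437.09), against a list median of 67.07, and the further O-GlcNAc peak of NDUFS1 scored 58.99. The FOXK1 peaks scored 73.45 to 689.09 at the 4 genes, against a list median of 76.33, so FOXK1 scores ranged from the middle of the list to its top. With scores of at least 100, FOXK1 was left at 2 of the 10 genes, SDHD and TFAM.

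**Figure D2:**
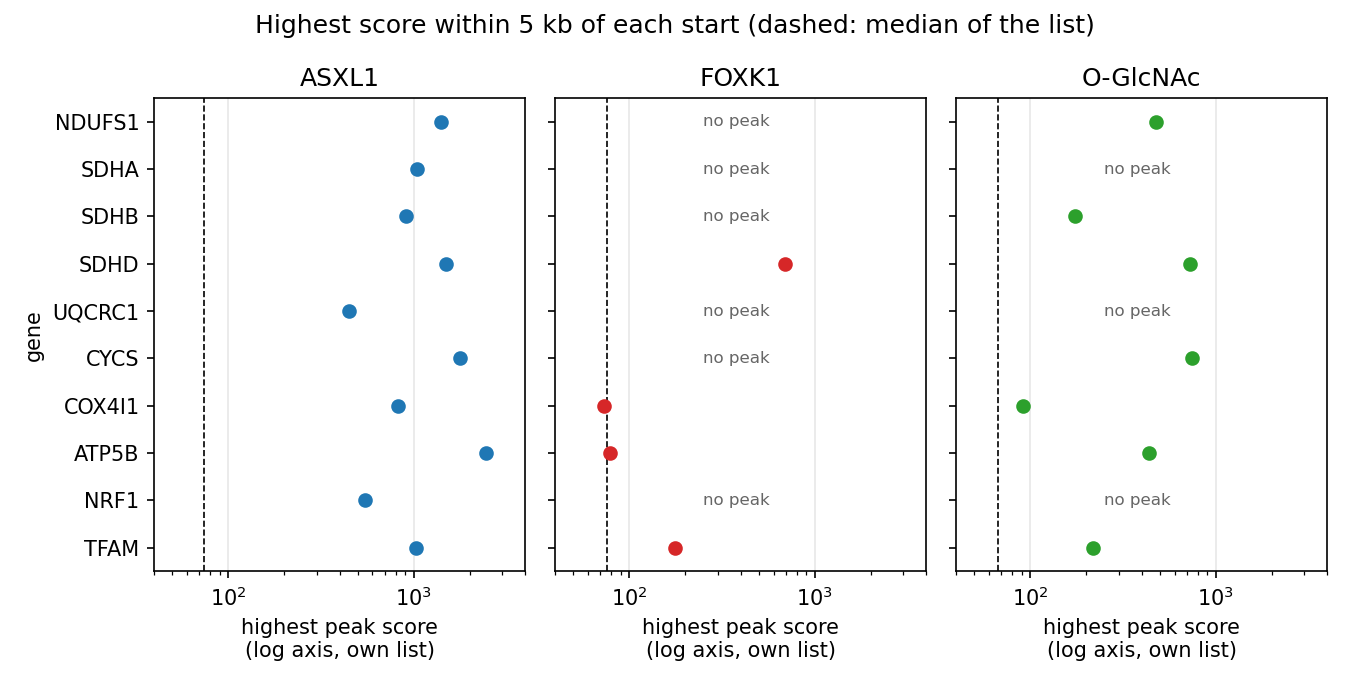
Highest peak score within 5 kb of each start, with 1 panel per list, a log axis for the score and 1 row per gene; the dashed line is the median score of all peaks of that list. Each ASXL1 point lies right of the line, SDHD has the highest FOXK1 score at 689.09, and the FOXK1 points of ATP5B and COX4I1 lie next to the line.

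NDUFS1 encodes the largest subunit of complex I, where electrons from NADH enter the chain. Its ASXL1 peak at chr2:207024007-207025044 scored 1406.42, above 97.6% of the list. The O-GlcNAc peak at chr2:207024015-207024719 lay wholly inside it and scored 475.49, above 96.0% of its list. Each had a small companion on its lower-coordinate side, which on this minus strand is the side of the gene body, with scores of 56.33 for ASXL1 and 58.99 for O-GlcNAc. A further ASXL1 peak at chr2:207027718-207028253, with a score of 62.37, lay on the other side, 3409 bp from the start. No FOXK1 peak was listed nearer than 52.958 kb. The start of EEF1B2, a translation elongation factor gene on the opposite strand, lies within 1 kb in RefSeq, so peaks over the NDUFS1 start cannot be told apart by gene.

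The 3 genes examined of complex II, which oxidises succinate, had 3 different sets of peaks. SDHA, the flavoprotein that holds the active site, had an ASXL1 peak at chr5:218038-218749 with a score of 1038.27, above 96.1% of the list. Neither other list had a peak near it, and the nearest lay 10.907 kb away for O-GlcNAc (score 55.74) and 181.545 kb away for FOXK1. SDHA has near-identical pseudogene copies elsewhere in the genome, and how reads that fit several places were counted is not given in the sources used here, so the values at SDHA are uncertain.

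SDHB, the iron-sulfur subunit, had an ASXL1 peak at chr1:17380310-17381153 that scored 904.23, above 95.2% of the list. An O-GlcNAc peak at chr1:17380314-17381034 lay inside it and scored 174.15, above 89.5% of its list. SDHB thus had O-GlcNAc with an ASXL1 score lower than that of SDHA, which had none. A FOXK1 peak with a score of 71.22 lay 5336 bp from the start, just beyond the 5 kb limit.

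SDHD, a membrane anchor of complex II, had high-scoring peaks of all 3 lists. The ASXL1 peak at chr11:111956634-111958098 scored 1499.42, the FOXK1 peak at chr11:111957066-111957959 scored 689.09, and the O-GlcNAc peak at chr11:111957328-111957775 scored 723.7. They stood above 97.9%, 98.9% and 97.6% of their lists in that order. The 3 peaks were nested, since the O-GlcNAc peak lay inside the FOXK1 peak and that inside the ASXL1 peak, with centres at -205 bp (ASXL1), -58.5 bp (FOXK1) and -19.5 bp (O-GlcNAc) from the start. SDHD also had 5 further ASXL1 peaks on its upstream side, out to chr11:111953471-111954328, with scores of 57.89 to 293.45 and no partner in either other list. TIMM8B, a gene for a mitochondrial import chaperone, reaches within 1 kb of the SDHD start in RefSeq, so the peaks cannot be given to 1 of the 2 genes.

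UQCRC1, a core subunit of complex III, had the lowest ASXL1 score of the 10 genes. Its peak at chr3:48646840-48647499 scored 447.03 and was 660 bp wide, also the narrowest of the 10. No O-GlcNAc peak was listed within 25.088 kb and no FOXK1 peak within 51.802 kb. UQCRC1 was 1 of 3 genes with ASXL1 alone.

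CYCS encodes cytochrome c, the soluble carrier between complexes III and IV. Its ASXL1 peak at chr7:25164641-25165518 scored 1768.19, the next highest after ATP5B and above 98.5% of the list. The O-GlcNAc peak at chr7:25164595-25165445 scored 743.54, the highest of the 7 genes and above 97.6% of its list, close to the 723.7 of SDHD. The nearest FOXK1 peak lay 30.764 kb away with a score of 125.94. CYCS and SDHD thus had similar ASXL1 and O-GlcNAc scores and opposite FOXK1 listings.

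COX4I1 encodes a subunit of complex IV, the oxidase that passes electrons to oxygen. Its ASXL1 peak at chr16:85832865-85833577 scored 828.54, and its O-GlcNAc peak at chr16:85832956-85833419 scored 91.25, the lowest of the 7 and above 74.9% of the list. The FOXK1 peak at chr16:85833655-85834117 scored 73.45 and stood above 47.0% of its list. It was the only FOXK1 peak of the 4 that missed the start, and it lay inside the gene, 482 bp past the start and 77 bp beyond the end of the ASXL1 peak. The start of EMC8 on the opposite strand lies within 1 kb of that of COX4I1 in RefSeq.

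ATP5B encodes the catalytic beta subunit of ATP synthase. Its ASXL1 peak at chr12:57039120-57040272 had the highest score of the 10, 2450.34, above 99.4% of the list. The O-GlcNAc peak at chr12:57039328-57040319 scored 437.09, above 95.6% of its list. The FOXK1 peak at chr12:57039328-57040402 began at the same base as the O-GlcNAc peak but scored 78.46, above 52.3% of the FOXK1 list. The order of the genes by ASXL1 score was therefore not their order by FOXK1 score.

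The 2 regulators differed from each other. NRF1 had an ASXL1 peak at chr7:129250968-129252040 with a score of 546.05 and a further ASXL1 peak of 429.6 whose edge lay 4643 bp away. No O-GlcNAc peak was listed within 11.094 kb of the NRF1 start and no FOXK1 peak within 34.758 kb. TFAM had an ASXL1 peak at chr10:60144628-60145877 (score 1032.51), a FOXK1 peak at chr10:60144824-60145496 (177.51) and an O-GlcNAc peak at chr10:60144908-60145635 (219.02), which began 5 bp past the start. The TFAM peaks stood above 96.0%, 85.6% and 91.5% of their lists in that order. All 3 were centred on the transcribed side of the TFAM start, by 349.5 bp, 257 bp and 368.5 bp, whereas the other highest-scoring peaks of the 10 genes, apart from the FOXK1 peak of COX4I1, were centred within 216.5 bp.

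The listings of O-GlcNAc and FOXK1 were then set beside those of other ASXL1 peaks of like score. Across the whole ASXL1 list the share that overlapped each other list was larger in each higher class of ASXL1 score. Of 3908 ASXL1 peaks with a score of at least 1000, 92.3% overlapped an O-GlcNAc peak (95% Wilson interval 91.5 to 93.1) and 35.8% a FOXK1 peak (34.3 to 37.3). The genes ATP5B, CYCS, SDHD, NDUFS1, SDHA and TFAM had an ASXL1 start peak of that score, and 5 of these 6 peaks overlapped O-GlcNAc and 3 of 6 overlapped FOXK1. SDHA was the exception for O-GlcNAc.

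Of 6260 ASXL1 peaks with a score of at least 400 and under 1000, 78.5% overlapped an O-GlcNAc peak (77.5 to 79.5) and 26.9% a FOXK1 peak (25.8 to 28.0). The start peaks of SDHB, COX4I1, NRF1 and UQCRC1 fell in this class. Of these, 2 of 4 overlapped O-GlcNAc, and 0 of 4 overlapped FOXK1. The intervals take in counting error alone, and the classes were chosen after the genes' scores had been seen. With 6 and 4 genes, these counts set nothing apart from other high-scoring ASXL1 peaks.

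**Figure D3:**
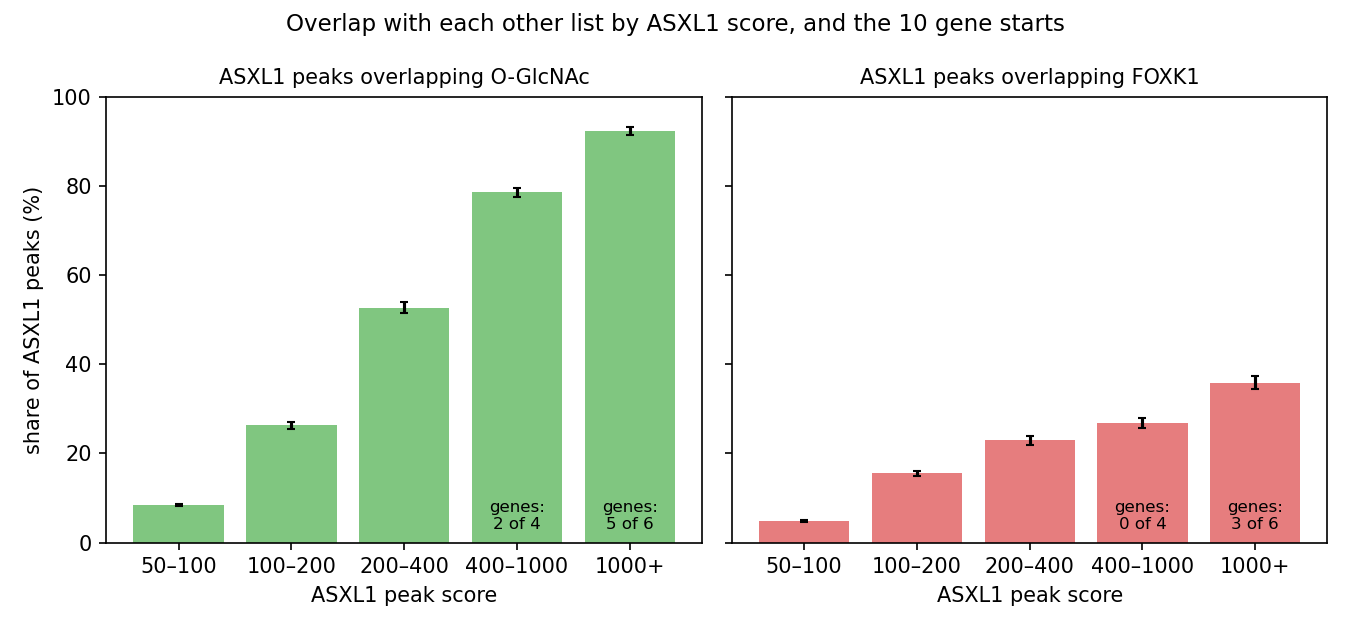
Share of ASXL1 peaks (percent, bars with 95% Wilson intervals) that overlap an O-GlcNAc peak (left) or a FOXK1 peak (right) by class of ASXL1 score; the text in the bars gives how many of the gene starts in that class do so. The shares are larger in each higher class, up to 92.3% and 35.8%, and the gene starts gave 5 of 6 and 3 of 6 in the highest class.

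The overlap of ASXL1 peaks with FOXK1 was also split by their overlap with O-GlcNAc. Among the 10 start peaks of ASXL1, 3 of the 7 that overlapped O-GlcNAc also overlapped FOXK1 (ATP5B, SDHD and TFAM), and 0 of the 3 without O-GlcNAc did. Over all ASXL1 peaks with a score of at least 400, these shares were 34.2% (interval 33.2 to 35.2) and 10.2% (8.84 to 11.8). With 7 and 3 genes, these counts set nothing apart from other ASXL1 peaks of such scores. An ASXL1 peak that overlapped both other lists was found in 2.06% of the 10 kb windows and at 3 of the 10 starts. In each pair of lists at these 3 genes, the overlap was at least 87.5% of the shorter peak, the value for FOXK1 and O-GlcNAc at TFAM.

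The highest-scoring peak of each list at each gene was wider than the median of its list. Widths of other peaks of like score were not analysed here. The 10 ASXL1 start peaks were 660 to 1465 bp wide (median 958 bp), and the median width of the list was 269 bp. The highest O-GlcNAc peak of each of the 7 genes was 448 to 992 bp wide (median 721 bp), against 231 bp for the list. The 4 FOXK1 peaks were 463 to 1075 bp wide, against a list median of 437 bp. In each of the 7 genes with both, the O-GlcNAc peak was narrower than the ASXL1 peak, and in 5 of them it lay wholly inside it.

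Some peaks lay near the 5 kb limit. Just inside it lay ASXL1 peaks of COX4I1 (4719 bp away, score 51.93), UQCRC1 (4785 bp, score 67.14) and NRF1 (4643 bp, score 429.6). Just outside it lay the FOXK1 peak of SDHB and ASXL1 peaks of NRF1 (5669 bp, score 52.81, and 5718 bp, score 457.25) and COX4I1 (5710 bp, score 52.71). CYCS had 7 ASXL1 peaks from 5903 to 9865 bp on its lower-coordinate side, the side of the gene body, with scores of 87.41 to 288.15. ATP5B had another place with all 3 lists 8391 to 8463 bp from its start, where O-GlcNAc scored 498.28, FOXK1 676.25 and ASXL1 1919.53. The FOXK1 score there was higher than the 78.46 at the ATP5B start itself.

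Base composition and short motifs of the promoters, which the rule had not used, were read next. RefSeq windows of 250 bases before to 50 after the start were at hand for 8 of the 10 genes, all but ATP5B and NRF1, with 2 windows for NDUFS1. Their G and C content was 62.3% to 74.7% (median 67.0%), against a median of 58.7% over all 35116 windows of the set. That set lacks some genes, as it does ATP5B and NRF1, and can hold several windows per gene. They held 24 to 42 CG dinucleotides (median 30), against a median of 14.

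Motifs were searched as letters on both strands, and a match describes the sequence and not a bound site. The letters CGCATGCG, a form of the NRF1 motif, were in 1 of 8 genes, SDHD, and in 2.02% of all windows. Their first base in SDHD was at position -109 from the start. No other form was counted as NRF1, so a gene without these letters may still hold such a motif. The ETS motif CCGGAAGT was in SDHD at -78 and in 1 of the 2 NDUFS1 windows, at -158 from that window's own start, and in 4.14% of all windows. The YY1 motif AAGATGGCG lay just past the start in SDHB and UQCRC1, from positions 11 and 24, and was in 1.75% of all windows. The SP1 motif GGGCGG was in 5 of 8 genes, TFAM with 5 matches among them, and in 45.0% of all windows. The forkhead motif GTAAACA was in 0 of the 8 genes' windows and in 3.42% of all windows, so with 8 genes this count sets nothing apart. The FOXK1 peaks of SDHD and TFAM were 894 and 673 bp wide, wider than these windows. The search thus did not cover those peaks whole and cannot show whether they hold the motif. The only matches that overlapped each other were neighbouring SP1 matches of TFAM.

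The SDHA promoter printed above held 4 copies of GCGCAGGCG, with first bases at -166, -117, -68 and -19, so that each copy lay 49 bases from the next. At least 4 copies were in 12 of the 35116 windows (0.0342%), and windows of neighbouring genes can share a sequence. UQCRC1 and TFAM held 1 copy each, on the other strand, and 3.82% of all windows held at least 1. These letters were searched after the SDHA sequence had been read. The start of CCDC127 on the opposite strand lies within 1 kb of that of SDHA in RefSeq, so the ASXL1 peak there cannot be given to 1 of the genes.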

How the data were processed

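Peaks of 3 ChIP-seq libraries of Flp-In HEK293 T-REx cells were used as deposited, each list from 1 library called against the input of its own chromatin preparation, per the labels. The submitters' processing notes name Bowtie2 2.0.0, MACS 1.4 and hg19, with no settings. The authors deposited a score per peak, with a lowest value of 50. Its form is that of -10 times the log10 of a p-value, but no label states its meaning, and scores were compared only within a list. The depth is unknown, so a missing peak means only that none was listed.

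Distances were counted from the nearest edge of a peak, with positions counted from 1, and overlap meant at least 1 shared bp. Background shares were counted over 10 kb windows, with each chromosome taken to end at its last peak, and over ASXL1 peaks by score. Intervals are 95% Wilson intervals for counting error only. No test was run and no p-value computed. Promoters came from RefSeq (GRCh38.p14), where 8 of 10 members matched by symbol. Python 3.11.15, pandas 2.3.3 and scipy 1.17.1 were used, and the overlap functions were tested on simulated data.

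The members and lists were chosen with earlier results of these data known. All 10 genes were named. Promoters were to be printed for genes with all 3 peaks at the start, by FOXK1 score, and for up to 2 genes without FOXK1. SDHA and SDHB were picked for the latter after their values were seen. ATP5B, which met the rule, had no entry, and TFAM was printed although its O-GlcNAc peak begins 5 bp past the start. Lists of other respiratory genes were not analysed here. Alternatives were other distances, score limits, list lengths and overlaps.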

Additional observations from a re-analysis of the deposited data

How the results depend on the processing

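Of 44 values under other settings, 32 equalled the main value. ASXL1 was listed at all 10 starts under each setting run, which were distances of 1, 2 and 10 kb, peak centres, scores of at least 100 and the 10000 highest-scoring peaks of each list. FOXK1 depended on the score limit. With scores of at least 100, and also with the 10000 highest-scoring peaks, the members with FOXK1 and those with all 3 lists each fell from 4 to 2, SDHD and TFAM, since ATP5B and COX4I1 had FOXK1 scores below both limits. The genes with overlapping peaks of all 3 lists went from 3 to 2 under both, without ATP5B. O-GlcNAc was then listed near 6 starts, without COX4I1. A distance of 10 kb added SDHB to the genes with FOXK1 and moved the median of the highest scores from 127.985 to 177.51 for FOXK1 and from 437.09 to 475.49 for O-GlcNAc. Both moves come from the place 8 kb from ATP5B and, for FOXK1, from SDHB. No paired analysis was possible because there was only 1 library for each antibody, so none could be left out in turn either. The unknown depth limits each statement that a peak was not listed.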

Other observations

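Within 50 kb of the 10 starts, the number of ASXL1 peaks was 8 at NDUFS1, COX4I1 and TFAM, 9 at SDHA, 11 at SDHD, 12 at SDHB and NRF1, 13 at UQCRC1 and CYCS, and 24 at ATP5B. FOXK1 had 0 peaks at NDUFS1, SDHA and UQCRC1, and at most 3, at ATP5B. O-GlcNAc had 2 peaks at NDUFS1 and SDHB and 9 at TFAM. The lists differ in length, with 94237 ASXL1, 21697 FOXK1 and 78825 O-GlcNAc peaks, so these numbers are not to be compared between lists.

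The peak at the start was the highest-scoring ASXL1 peak within 50 kb at 8 of the genes. The exceptions were TFAM, where another ASXL1 peak scored 2031.49 against 1032.51 at the start, and ATP5B, where another scored 2548.41 against 2450.34. How often other ASXL1 peaks of like score were the highest within 50 kb was not counted. Around TFAM the other lists also had higher scores away from the start, with 427.29 for FOXK1 and 949.94 for O-GlcNAc. SDHA and UQCRC1, which had no O-GlcNAc peak at the start, had O-GlcNAc peaks of 335.22 and 370.36 within 50 kb. NRF1 had none above 73.21.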
